A study of Mus musculus with 17 samples.

Results

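Of the H3.3 regions found in Arid1a cKO pachytene spermatocytes, 258 lay on autosomes, outside every annotated gene and more than 1 kb from every transcript start. They were chosen by position alone. Overlapping rows of the deposited Arid1a cKO peak list (by 1 bp or more) were joined into 1 region, which was kept when its centre met both conditions in the mm10 annotation GENCODE M21, in which every kind of gene was counted. The list gave 6552 regions, of which 6179 were autosomal, so the 258 were 4.18% of the autosomal regions (95% Wilson interval 3.70 to 4.70%). The other autosomal regions were 5581 within 1 kb of a transcript start and 340 distal ones inside genes.

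The assay was CUT&RUN with an H3.3 antibody, which leads a nuclease to its target on chromatin so that the fragments cut free can be sequenced. The cells were pachytene spermatocytes, the meiotic cells of mid prophase, enriched by sedimentation (Sta-Put) from adult testes and pooled over animals. The Arid1a cKO males were Arid1a fl/fl and carried Stra8-Cre, a transgene that acts from the spermatogonial stage. The WT males were Arid1a fl/fl or fl/+ without Cre. The floxed Arid1a mice were on a CD1 background, and the methods do not give that of the Stra8-Cre line. Of 17 libraries, 5 were made with the H3.3 antibody, 3 from Arid1a cKO and 2 from WT, and the other 12, made with ARID1A antibodies, were not analysed here. Cre excision was incomplete in this cross, so the Arid1a cKO cells included spermatocytes that kept ARID1A. Each genotype has 1 list that combines its replicates. No value per library, spread between replicates or test of genotype can therefore be had, and the depth is unknown. A list of peaks also does not allow the cell type to be checked by its marker genes.

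H3.3 is a replacement variant of histone H3 that is put into chromatin outside DNA replication. The chaperone HIRA is known for placing it at active genes, and the chaperones DAXX and ATRX for placing it at repeated sequences and silent chromatin. ARID1A belongs to the BAF complex, which moves and evicts nucleosomes. CpG islands are stretches of DNA rich in CG dinucleotides that mark most mammalian promoters. LINE-1 elements are retrotransposons that copy themselves through RNA, and full-length mouse copies begin with an array of tandem repeats, called monomers, that carries their promoter.

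The distal intergenic regions fell into sequence families on one side and mostly single-copy DNA on the other. Regions were joined when 10% or more of the smaller one's 31-mers were common to both, and 139 of the 258 (53.9%, 47.8 to 59.9%) came together in 3 families of 119, 13 and 7 regions. The other 119 belonged to no family of 5 or more. A region shorter than 31 bp could not join a family by this rule, and the shortest of the 119 had 26 bp. To show what the members of each family have in common, 1 stretch of 30 bases is given for each, taken from GRCm38 and written 5′ to 3′ along the strand of the reading frame described below. It is the 30-mer found in the most members among those that hold the motif most frequent in the family. The capitals mark that motif, which is the YY1 motif (AAGATGGCG, here as CGCCATCTT) in the first 2 families and the NFY motif (CCAAT) in the third.
Family of 119: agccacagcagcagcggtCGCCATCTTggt
Family of 13: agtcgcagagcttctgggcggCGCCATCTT
Family of 7: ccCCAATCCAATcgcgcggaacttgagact

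The first stretch stood in 87 of the 119 members, the second in 10 of 13 and the third in 4 of 7. In the genome it recurred in tandem. The median step between neighbouring copies on the same strand was 212 bp for the first stretch, 206 bp for the second and 208 bp for the third. In the 8 kb on either side of each region, 98 of the 139 family members (70.5%, 62.5 to 77.5%) had an open reading frame of at least 1000 residues that contained the 4-residue catalytic motif of LINE-1 reverse transcriptase, and 1 of the 119 regions of no family did (0.840%, 0.148 to 4.61%). The median length of these frames was 1300 residues. In 96 of the 98 the frame began downstream of the region, at a median of 1.74 kb from its centre. The stretch and the frame ran on the same strand in all 79, 6 and 3 members of the respective families in which both were found. Tandem monomers of this length followed by such a frame are the structure of the start of a full-length mouse LINE-1 element, and the families are called LINE-1-like here on that ground. No repeat annotation was used to name them.

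The families were repeated throughout the genome. The 50-mers of a family member occurred a median of 909 times (95% interval of the median 653 to 1010), over both strands of the nuclear genome, and for 137 of the 139 fewer than 50% of the 50-mers occurred once. In the regions of no family the median was 1 copy, and in 97 of 119 every 50-mer was unique. By the soft-masking of the reference, which marks repeats, all 139 family members were mostly masked and 12 of the 119 others were. None of the 258 shared a 31-mer with the mitochondrial genome. A mapping-quality filter was not described for these reads, and reads from identical copies cannot be assigned to 1 of them, so the listed position of a family member may stand for another copy.

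**Figure D1:**
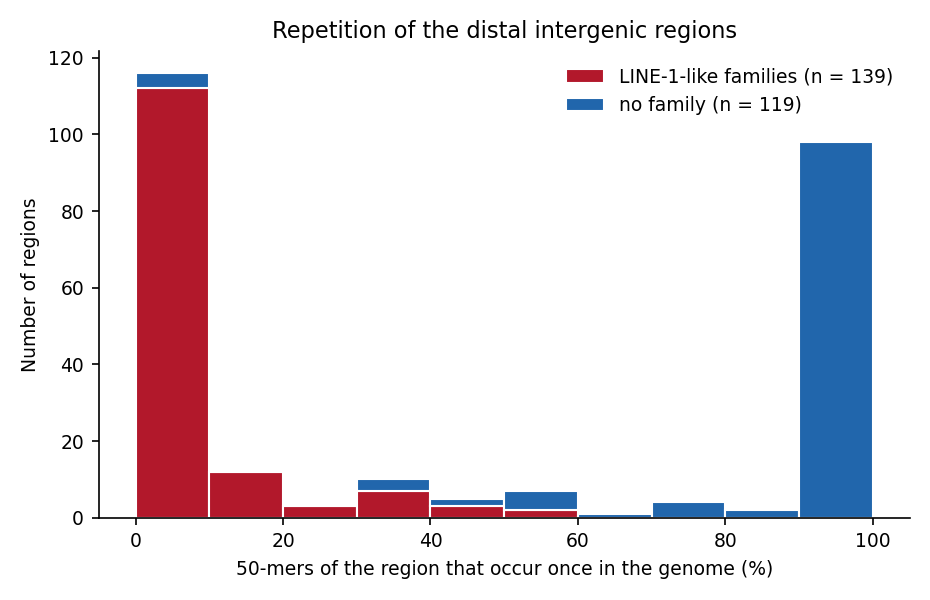
Number of distal intergenic Arid1a cKO H3.3 regions (y axis) by the share of their 50-mers that occur once in the genome (x axis, %, bins of 10). Red bars are the 139 members of LINE-1-like families and blue bars stacked on them the 119 regions of no family, and most regions stand at one end or the other of the axis.

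Only some copies of these sequences were in the list, but reads from identical copies cannot be assigned to 1 of them. Places outside the list are thus not shown to lack H3.3. Copies of a stretch at most 1000 bp apart were counted as 1 place. The first stretch had 1157 distal intergenic autosomal places, of which 97 touched an Arid1a cKO region (8.38%, 6.92 to 10.1%). For the second stretch 11 of 225 places did (4.89%, 2.75 to 8.54%), and for the third 3 of 803 (0.374%, 0.127 to 1.09%). Each stretch was chosen as one found in the most members of its family, and those members come from this same list. The shares therefore partly follow from the choice, and no ranking of the sequences is drawn from them. Places are not replicates, and these intervals cover counting error only.

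Sequence of the 3 families was also looked for in the other listed regions, and it was rare at promoters. At least 10% of the 31-mers came from the families in 6 of the 5581 regions within 1 kb of a start (0.108%, 0.0493 to 0.234%) and in 52 of the 340 distal regions inside genes (15.3%, 11.9 to 19.5%). On X and Y, where the same position rule gave 130 regions, 71 of them held it (54.6%, 46.0 to 62.9%). Without the position rule, 84 of all 373 Arid1a cKO regions on X and Y held it (22.5%, 18.6 to 27.0%). In the WT list, also without that rule, 0 of the 224 sex-linked and 0 of the 4 autosomal regions did. For the sex-linked ones the Wilson interval allows a share of up to 1.69%.

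The regions of no family included the strongest ones. Fold enrichment, the ratio of H3.3 signal to an IgG background from another study as the authors' peak caller gave it, ranged from 2.83 to 9.23 over the 258 regions with a median of 3.27 (3.18 to 3.42). That IgG came from pachytene-enriched cells of juvenile testes, whereas the H3.3 cells came from adults. The label of the list names it rabIgG, apparently rabbit IgG, whereas the H3.3 antibody was a mouse monoclonal. The medians were 3.27 in the families and 3.27 outside them, but the upper ends differed. All 10 regions with the highest fold were of no family, and the highest family member reached 4.58, which was rank 21. A fold of at least 5 was seen in 14 of the 119 regions of no family (11.8%, 7.14 to 18.8%) and in 0 of the 139 family members (up to 2.69%). A -log10 q of at least 3 was reached by 49 of the 119 (41.2%, 32.7 to 50.2%) and by 20 of the 139 (14.4%, 9.51 to 21.2%). At the low end, 42 regions shared the same fold of 2.91, of which 33 were of no family.

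**Figure D2:**
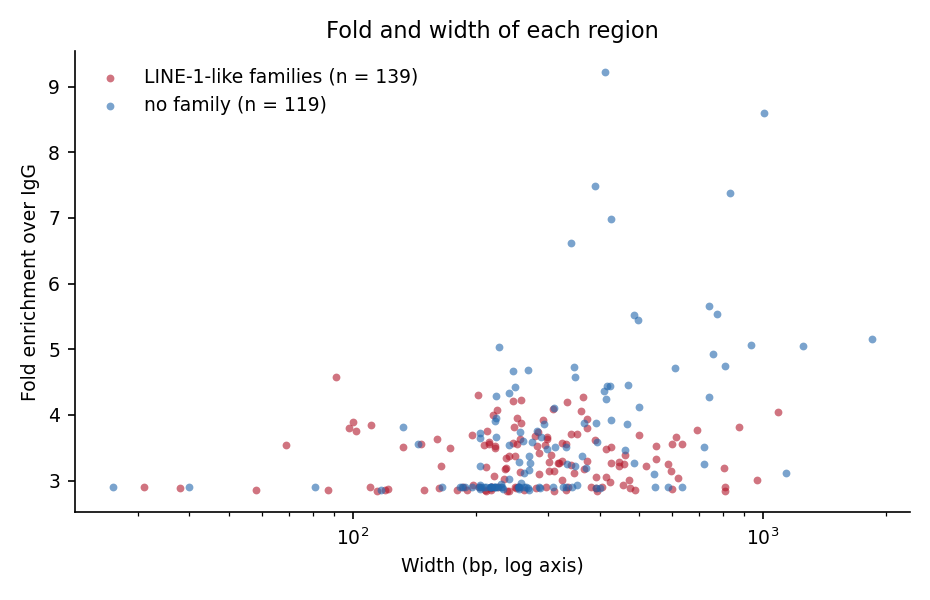
Fold enrichment of H3.3 over IgG (y axis) against width (x axis, bp, log axis) for each of the 258 distal intergenic regions, red for the 139 LINE-1-like family members and blue for the 119 of no family. The points above a fold of 5 are all blue, and most points of both colours lie between 200 and 500 bp.

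The distal intergenic regions were narrower and weaker than those at promoters. Their median width was 282 bp (257 to 304), with a range of 26 to 1844 bp, against 436 bp (430 to 445) within 1 kb of a start and 288 bp (264 to 306) in the distal regions inside genes. The shortest regions had 14 bp at starts and 1 bp inside genes. The authors overlapped the peaks of replicates, so a listed width may be that of an overlap and not of a whole peak. The median fold of 3.27 compared with 4.05 (4.02 to 4.09) at starts and 3.19 (3.08 to 3.31) inside genes. A peak found in several replicates can stand in the list on more than 1 row, and 133 of the 258 regions (51.6%, 45.5 to 57.6%) had at least 2 rows, against 89.7% (88.8 to 90.4%) at starts and 56.5% (51.2 to 61.6%) inside genes. Among the 258, the share with at least 2 rows was 61.3% (52.4 to 69.6%) outside the families and 43.2% (35.2 to 51.5%) in them.

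The 10 regions with the highest fold lay near genes of several kinds, none of which is shown to be a target. The highest, chr15:85634387-85634798, had a fold of 9.23 and lay 11.5 kb from the record Gm49539 and 52.1 kb from Wnt7b, which encodes a secreted Wnt ligand. In RefSeq its centre was 4 bp from the start of the predicted transcript D130051D11Rik. The next, at chr1:134556218-134557223 with a fold of 8.59, lay 3451 bp upstream of Kdm5b, which encodes a demethylase of histone H3 lysine 4. In RefSeq its centre was inside the protein-coding gene Mgat4e. The region at chr8:70865500-70865889 (fold 7.48) was 266 bp downstream of the record A230052G05Rik, of a class still to be experimentally tested, and 2436 bp upstream of Kcnn1, a calcium-activated potassium channel gene, and 3 bp from a predicted RefSeq start of it. At chr19:5803293-5804124 (fold 7.39) the region was 1036 bp upstream of Malat1, an abundant nuclear long noncoding RNA.

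The other 6 had folds of 5.44 to 6.99. One at chr8:69716521-69716947 (6.99) lay 103 bp from a predicted RefSeq start of the zinc finger gene Zfp869. One at chr11:31870479-31871218 (5.65) lay 92 bp from a curated RefSeq start of Cpeb4, an RNA-binding protein gene, but 1363 bp from the nearest GENCODE record. A region 33.2 kb upstream of Pum2, an RNA-binding translational repressor gene, had a fold of 6.61. The remaining ones were 33.9 kb upstream of the forkhead factor gene Foxk1 (5.53), 3686 bp from the record Gm44734 and 76.5 kb upstream of the chromatin remodeler gene Chd2 (5.52), and 2007 bp downstream of the T-box factor gene Tbr1 (5.44). All 10 had at least 2 rows in the list, and in RefSeq the centres of 3 lay inside a gene, namely those at Mgat4e, Zfp869 and Cpeb4.

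To show the kind of DNA that the strongest regions held, the central 200 bp are given for the 4 highest folds whose centre overlapped no exon of a protein-coding transcript, from GRCm38 on the plus strand with each CG dinucleotide in capitals. They are chr15:85634492-85634691 beside D130051D11Rik, chr1:134556620-134556819 upstream of Kdm5b, chr19:5803608-5803807 upstream of Malat1 and chr12:8640829-8641028 upstream of Pum2.
D130051D11Rik: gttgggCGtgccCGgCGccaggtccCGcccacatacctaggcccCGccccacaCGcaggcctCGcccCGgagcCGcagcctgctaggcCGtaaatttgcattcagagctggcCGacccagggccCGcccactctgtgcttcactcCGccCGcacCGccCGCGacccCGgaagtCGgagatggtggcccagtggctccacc
Kdm5b: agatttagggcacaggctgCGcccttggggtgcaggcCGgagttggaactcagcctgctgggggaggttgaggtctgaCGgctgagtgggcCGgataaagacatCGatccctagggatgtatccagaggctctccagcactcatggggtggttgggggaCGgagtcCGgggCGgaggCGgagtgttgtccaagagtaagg
Malat1: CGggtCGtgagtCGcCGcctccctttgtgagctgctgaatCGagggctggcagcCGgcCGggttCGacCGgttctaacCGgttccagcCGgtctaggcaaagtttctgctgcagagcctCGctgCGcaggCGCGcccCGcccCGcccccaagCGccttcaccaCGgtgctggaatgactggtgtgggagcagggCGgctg
Pum2: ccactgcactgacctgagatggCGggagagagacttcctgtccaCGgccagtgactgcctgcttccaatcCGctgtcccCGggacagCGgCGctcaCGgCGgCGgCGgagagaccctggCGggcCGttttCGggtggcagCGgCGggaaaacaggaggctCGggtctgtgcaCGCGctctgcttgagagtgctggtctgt

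These 4 stretches held 19, 9, 20 and 18 CG dinucleotides. Over whole regions, a region was called CpG-rich when its GC content was at least 50% and its ratio of observed to expected CG at least 0.6. This held for 82 of the 119 regions of no family (68.9%, 60.1 to 76.5%), for 58 of the 139 family members (41.7%, 33.9 to 50.0%) and for 96.2% (95.6 to 96.7%) of the regions at starts. The families differed, with 39 of the 119, 13 of the 13 and 6 of the 7 CpG-rich. Of the distal regions inside genes 59.7% (54.4 to 64.8%) were. As a background, the autosomes were divided into windows of 200 bp, and 5998325 windows met the same position rule. Of these 0.519% were CpG-rich. GC content was high in every distal intergenic region. The median was 67.1% (66.4 to 67.5%) in the distal regions inside genes and 40.5% in the windows. In the 258 regions it ranged from 51.8 to 77.5% with a median of 66.0% (65.5 to 66.2%). Every region thus passed the GC limit, and the groups differed in the CG ratio, whose median was 0.587 (0.576 to 0.601) in the families and 0.751 (0.671 to 0.806) outside them.

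Distance to the nearest gene record separated the 2 kinds of region. Over all 258 the median distance from the centre to the nearest record was 15.1 kb (12.4 to 19.5), with a range of 83 bp to 380 kb, and the median of the background windows was 21.1 kb. For the regions of no family the median was 7.13 kb (4.72 to 9.42), and 60.5% (51.5 to 68.8%) lay within 10 kb of a record, against 31.6% of the windows. For family members it was 30.7 kb (25.6 to 35.4), and 19.4% (13.7 to 26.8%) lay within 10 kb. To the nearest protein-coding gene the medians were 13.6 kb (10.2 to 22.5) outside the families and 153 kb (107 to 221) in them.

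**Figure D3:**
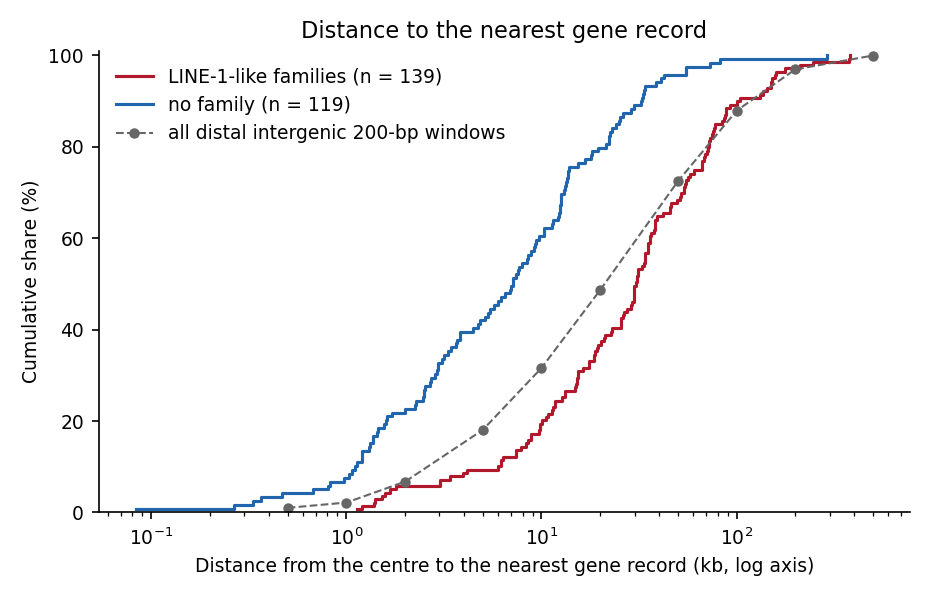
Cumulative share (y axis, %) of regions by distance from their centre to the nearest GENCODE gene record (x axis, kb, log axis). The blue line is the 119 regions of no family, the red line the 139 LINE-1-like family members and the grey points all 200-bp windows that met the same position rule, and at 10 kb the lines stand at 60.5%, 19.4% and 31.6%.

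The 5 regions farthest from any gene record were mostly in families. The farthest, chr10:55504081-55504680, lay 380 kb from a record, had a fold of 2.87 and held the first stretch above 3 times. The next lay at chr8:102147705-102148324 (376 kb, fold 3.04), chr11:7581698-7581841 (291 kb, fold 3.56), chr2:178774367-178774601 (246 kb, fold 3.17) and chr19:14228747-14228980 (210 kb, fold 3.02). The one on chromosome 11 belonged to no family, although its 50-mers had a median of 18 copies. In RefSeq the one at chromosome 8 was inside a pseudogene, Gm51539. Of the 25 farthest regions 23 were family members.

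The nearest record was of a different kind in the 2 groups. It was a protein-coding gene for 59 of the 119 regions of no family (49.6%, 40.8 to 58.4%) and for 31 of the 139 family members (22.3%, 16.2 to 29.9%), where 40.6% of all autosomal records are protein-coding. It was a pseudogene of any kind for 26 of the 119 (21.8%, 15.4 to 30.1%) and for 66 of the 139 (47.5%, 39.4 to 55.7%), where 22.6% of the autosomal records are pseudogenes. Outside the families the pseudogene share was thus near that of all records, whereas the interval of the coding share lay just above it. The share of all records is not the share expected at an intergenic position, and the nearest record of the background windows was not computed. The regions lay upstream of the nearest record in 123 of 258 cases (47.7%, 41.7 to 53.8%), with an interval that includes 50%. By symbol, the nearest protein-coding gene was a Zfp gene (zinc finger proteins) for 6 of the 119 regions of no family (5.04%, 2.33 to 10.6%) and for 0 of the 139 family members, where Zfp genes are 1.86% of the autosomal coding genes. It was an olfactory receptor gene (Olfr) for 3 of the 258 (1.16%, 0.396 to 3.36%), all in families, where these are 5.42% of the coding genes. It was a vomeronasal receptor gene (Vmn) for 5 (1.94%, 0.831 to 4.46%), of which 4 were in families, near their share of 1.58%. Histone (Hist) and Hox genes were nearest to none of the 258 (up to 1.47%), and with shares of 0.322% and 0.187% of the coding genes fewer than 1 of either would fall among 258 at that rate.

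The annotation used decides part of the intergenic status. In RefSeq, 50 of the 258 regions (19.4%, 15.0 to 24.6%) lay inside a gene or within 1 kb of a transcript start, against 10.2% of the background windows. The share was 32.8% (25.0 to 41.6%) outside the families and 7.91% (4.48 to 13.6%) in them. For 23 regions the RefSeq feature was a start within 1 kb, and 22 of these were of no family. For 15 of the 23 the nearest start was that of a predicted transcript. With curated transcripts alone the share of the 258 was 3.49% (1.85 to 6.50%). Coding genes with a curated start within 1 kb included, besides Cpeb4, the growth factor receptor gene Igf1r (736 bp) and the potassium channel gene Kcnk9 (75 bp), both named here after their values were seen.

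The values on either side of the 1 kb threshold are given as a description. The 5 members nearest to a transcript start had centres 1036 to 1136 bp from it. They were the Malat1 region, one 1067 bp upstream of the microRNA gene Mir148a (fold 4.27), one 1104 bp from the record Gm36967 (3.37), a family member 1130 bp from the pseudogene Gm10780 (2.85) and one 1136 bp upstream of Erbin, which encodes a scaffold protein (4.29). In RefSeq the Mir148a, Gm36967 and Erbin ones, 3 of the 5, lay inside other genes. The 5 intergenic regions just under the threshold had centres 866 to 983 bp from a start, at the record Gm43238 (fold 3.80), the transcriptional repressor gene Scrt1 (3.67), the ubiquitin ligase gene Trim8 (3.69), Abr (2.91) and Pnma2 (2.91).

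The 5 widest regions were CpG-rich with 1 exception. The widest of all, chr15:96284951-96286794, spanned 1844 bp with a fold of 5.15 and lay 1377 bp from the noncoding record 2610037D02Rik and 1646 bp upstream of Arid2, which encodes a subunit of the related PBAF remodeler. The next were a region of 1254 bp at chr4:133813256-133814509 (fold 5.05), one of 1139 bp 1306 bp upstream of the GENCODE record of Igf1r (fold 3.12), a family member of 1087 bp at chr8:52304488-52305574 (fold 4.04) and the Kdm5b region of 1006 bp. In RefSeq 3 of these 5 had their centre inside a gene, the widest in Gm38469, the one on chromosome 4 in Gm34296 and the Kdm5b region in Mgat4e. In the family member the ratio of observed to expected CG was 0.527. Over its whole length the widest region held 171 CG dinucleotides, at a ratio of observed to expected CG of 0.959. Its central 200 bp (chr15:96285772-96285971) are given in the same way, and this stretch alone held 9 CG dinucleotides.
Arid2: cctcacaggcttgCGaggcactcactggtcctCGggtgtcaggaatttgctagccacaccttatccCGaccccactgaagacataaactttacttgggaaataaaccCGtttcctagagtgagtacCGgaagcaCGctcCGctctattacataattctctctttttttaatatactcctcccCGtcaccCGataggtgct

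Members of no family lay nearer to other H3.3 regions of the Arid1a cKO list. The median distance to the nearest region at a transcript start was 87.0 kb (59.8 to 115) outside the families and 601 kb (451 to 785) in them, and the median of the background windows was 446 kb. Within 10 kb of such a region lay 17 of the 119 (14.3%, 9.11 to 21.7%) and 1 of the 139 (0.719%, 0.127 to 3.96%), against 2.31% of the windows.

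Most regions stood alone, but members lay near each other more often than background windows lay near a member. Another member stood within 10 kb for 8 of the 258 (3.10%, with a lower limit of 1.58%), against 0.372% of the windows, and within 100 kb for 21 (8.14%, 5.39 to 12.1%), against 2.86%. Some of the closest neighbours may be parts of 1 peak. On chromosome 6, 2 members together spanned 0.219 kb and had the same fold of 2.90, but only 1 of them was a family member. The split into families may thus place parts of 1 peak on both sides. With rows up to 1 kb apart joined, 252 regions remained, and the share within 10 kb was not recomputed for them. Of the regions at starts 2.44% (2.06 to 2.88%) had a member within 100 kb, and of the distal ones inside genes 4.12% (2.47 to 6.79%). Within 1 Mb the share was 25.2% (20.3 to 30.8%), against 20.2% of the windows. When members up to 100 kb apart were chained, 237 stood alone, and there were 5 groups of 2, 1 group of 3 and 2 groups of 4. The group of 3, on chromosome 14, consisted of family members only, with folds of 2.90 to 3.79.

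The first group of 4 spanned 91.0 kb at chr1:86434298-86525281, between the testis gene Tex44 and Ptma, the prothymosin gene. Its folds were 3.10, 4.72, 3.47 and 2.91 from left to right, all 4 were CpG-rich with unique 50-mers only, the first was inside the RefSeq gene Gm32700 and the last lay 1553 bp upstream of Ptma. The second spanned 134 kb at chr2:18556145-18690469, with folds of 4.06, 2.91, 4.72 and 2.89. Its first region was a family member. Its last ones lay 2276 and 3644 bp downstream of Bmi1, which encodes a subunit of Polycomb repressive complex PRC1, and inside the RefSeq gene Gm46725. The stretch with the highest fold of the first group (chr1:86487533-86487732) had the densest CG dinucleotides of the sequences given here, 28 in 200 bp.
Group near Ptma: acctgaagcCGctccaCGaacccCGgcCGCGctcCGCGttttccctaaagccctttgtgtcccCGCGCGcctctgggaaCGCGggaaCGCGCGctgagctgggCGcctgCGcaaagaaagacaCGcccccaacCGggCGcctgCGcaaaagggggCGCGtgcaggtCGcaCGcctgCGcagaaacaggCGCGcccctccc

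Density per chromosome varied within each kind. Over the 19 autosomes, of 2463 Mb in all, there were 0.105 regions per Mb, 0.0564 in families and 0.0483 outside them. Family members ranged from 0.0164 per Mb on chromosome 11 to 0.102 on chromosome 1, and the others from 0.0102 per Mb on chromosome 16 to 0.106 on chromosome 11. Chromosome 11 thus held 13 regions of no family and 2 family members, whereas chromosome 1 held 10 and 20. The differences between chromosomes were not tested.

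**Figure D4:**
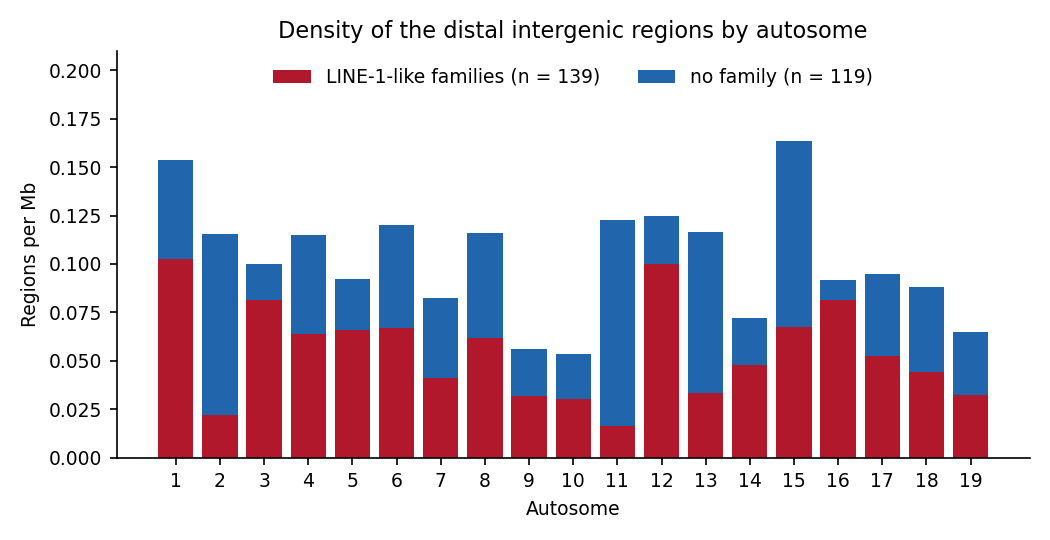
Distal intergenic Arid1a cKO H3.3 regions per Mb (y axis) on each of the 19 autosomes (x axis), stacked as LINE-1-like family members (red) and regions of no family (blue). The red part is smallest on chromosome 11, at 0.0164 per Mb, and largest on chromosome 1, at 0.102.

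The centres differed in the short motifs they held. The search covered the central 200 bp on both strands for 10 motifs and counted regions with at least 1 match, and matches of different motifs were counted separately. The motif of YY1, a zinc finger factor that can activate or repress, stood in 114 of the 258 (44.2%, 38.3 to 50.3%), in 78.4% (70.9 to 84.4%) of the family members and in 4.20% (1.81 to 9.46%) of the others, against 0.256% of the background windows and 2.49% (2.11 to 2.93%) of the regions at starts. Of the distal regions inside genes 12.9% (9.78 to 16.9%) held it. Within the families it was in 96 of the 119, 13 of the 13 and 0 of the 7. The ETS motif (CCGGAAG) was in 47.5% (39.4 to 55.7%) of family members, all in the largest family, and in 7.56% (4.03 to 13.8%) of the others, against 0.468% of windows. In the distal regions inside genes the ETS motif was in 9.71% (6.99 to 13.3%). Copies of a family share their sequence and are not independent occurrences.

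The SP/KLF motif (GGGCGG), which is bound by zinc finger factors of GC-rich promoters, was about equally frequent in both kinds of region. It was in 57.6% (49.2 to 65.5%) of the family members, 58.8% (49.8 to 67.3%) of the others and 61.2% (59.9 to 62.5%) of the regions at starts, against 1.42% of the windows. In the distal regions inside genes it was in 42.4% (37.2 to 47.7%). The windows were not matched for GC content, whose median was 40.5% in them and 66.0% in the 258 regions. The NFY motif, which is short and not rich in GC, was in 10.1% (6.97 to 14.4%) of the 258 against 31.4% of the windows, with all 7 members of the smallest family among the matches. The MYB motif (CAACNG) was in 15.5% (11.6 to 20.4%) against 22.0%, and the E-box (CACGTG) in 4.26% (2.40 to 7.47%) against 1.73%. The CRE (TGACGTCA), NRF1 (GCATGCGC) and RFX half-site (GTTGCCATG) motifs were in 2 regions each (0.775%, 0.213 to 2.78%), against 0.0960%, 0.172% and 0.194% of the windows. The CTCF motif was in none of the 258 (up to 1.47%), against 0.0826% of the windows, at which rate fewer than 1 of the 258 would hold it.

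**Figure D5:**
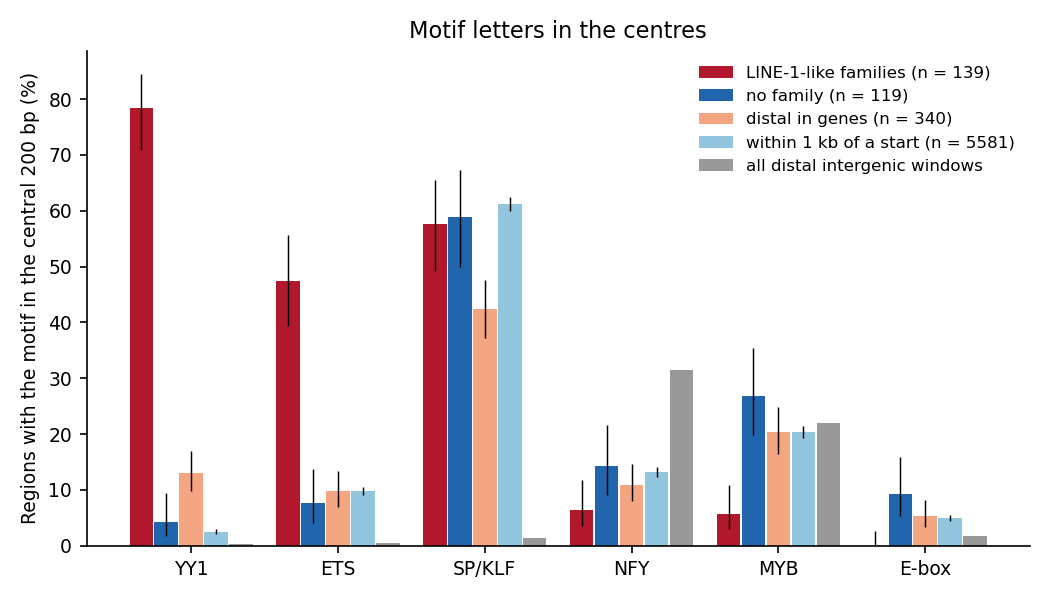
Share of regions (y axis, %) whose central 200 bp hold each of 6 motifs (x axis), for LINE-1-like family members (red), regions of no family (blue), distal regions inside genes (orange), regions within 1 kb of a start (light blue) and all distal intergenic windows (grey). Error bars are 95% Wilson intervals, and the YY1 bar of the families, at 78.4%, stands above all other YY1 bars.

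None of the 258 regions overlapped a region of the WT list, and neither did any other of the 6179 autosomal Arid1a cKO regions, so the count says nothing particular about the distal intergenic ones. The WT list held 228 regions, of which 4 were autosomal, and the nearest of them lay 0.523 Mb from a member. The difference between the genotypes was not tested.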

How the data were processed

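Per the labels and methods, the authors used Bowtie2 and mm10 for alignment after trimming, removed duplicates, ran MACS2 for broad peaks per library with IgG from another study as control and overlapped the peaks of replicates. The deposited lists give for each peak a fold enrichment (a ratio of H3.3 to background), a -log10 p and a -log10 q, and a score that restates the q and was not used. Depth is not given in the sources used here. Unmatched per-sample columns numbered 0.

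Merging, annotation with GENCODE M21 and RefSeq (GRCm38.p6), k-mer counts, motifs and reading frames were computed in Python 3.11.15 with numpy 2.4.6, pandas 2.3.3 and scipy 1.17.1, and figures with matplotlib 3.10.9. The fold of a joined region is that of its highest row. The functions were tested on simulated data. Shares have 95% Wilson intervals and medians have order-statistic intervals. These reflect counting error alone and take each region as independent, which copies of a family are not.

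The regions and lists were chosen with earlier results of these data known, and the split into families was made after the sequences had been seen. Regions named are the 10 of highest fold, the 5 farthest from a gene, the 5 widest, the largest groups and the 5 on each side of the 1 kb threshold. Alternatives covered the -log10 q, the number of rows, the distance from a start, merging, the gene set, window sizes and k-mer length. The WT list was used only for overlap and family sequence.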

Additional observations from a re-analysis of the deposited data

How the results depend on the processing

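Depth is unknown, so it cannot be said what the lists could not detect. No paired analysis was possible because the replicates were combined into 1 list a genotype and no test was run.

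With a -log10 q of at least 3, the count of regions fell to 69 (1.73% of autosomal regions), the median fold was 4.19, the width 349 bp, the distance to the nearest gene 11.4 kb, the GC content 66.4% and the share of unique 50-mers 100%, and 31.9% lay at a RefSeq gene or start. With at least 5, there were 18 regions (1.04%), and these values were 5.48, 553.5 bp, 4.85 kb, 66.8%, 100% and 55.6%, with 94.4% CpG-rich and 0% with a member within 100 kb. Regions with at least 2 rows numbered 133 (2.50%), with a width of 340 bp, a distance of 10.6 kb, 67.9% unique 50-mers and 61.7% CpG-rich. With centres over 5 kb from a start, the share of autosomal regions was 3.41%, the distance 22.5 kb and the CpG-rich share 47.9%. Counted by rows there were 392 (3.41%). With protein-coding genes only, the share was 6.25% and the distance 51.8 kb.

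Without the families, an alternative chosen after seeing the data, 119 regions (1.97%) remained in the count, the distance was 7.13 kb, the CpG-rich share 68.9%, the GC content 66.9%, the RefSeq share 32.8% and the unique share 100%. The next values are again for all 258 regions. A neighbour stood within 10 kb for 3.10% of them and within 1 Mb for 25.2%. Their CpG-rich share was 39.9% under the stricter definition, and their RefSeq share 3.49% with curated transcripts. Under the other 25 alternatives, values stayed within the interval of the main value or, for counts, within 1.5 times of it. The median fold left its interval only at the -log10 q thresholds, which select on a statistic of the same peaks. With the median row of a region in place of the highest, it was unchanged at 3.27 (3.18 to 3.42).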
